A study of Mus musculus with 16 samples.

Results

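The sirtuins are a family of 7 enzymes, Sirt1 to Sirt7, that remove acetyl and related acyl groups from proteins and spend NAD+ in each reaction. Sirt1, Sirt6 and Sirt7 act mainly in the nucleus, Sirt2 mainly in the cytosol, and Sirt3, Sirt4 and Sirt5 in mitochondria. Because they depend on NAD+, they link the metabolic state of a cell to chromatin and to mitochondrial enzymes, and several of them have been studied in the maintenance of haematopoietic stem cells (HSC) under stress and with age. Each probe set whose only gene symbol was one of these 7 names was taken. This gave 7 of 18193 genes and 9 of the 45101 probe sets on the array: 1 each for Sirt1, Sirt2, Sirt3, Sirt4, Sirt6 and Sirt7, and 3 for Sirt5.

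The mouse arrays came from 7 groups of wild-type C57Bl6 cells. Steady-state HSC were sorted from bone marrow of male mice, young (3 to 4 months, 3 arrays) or aged (21 to 24 months, 3 arrays). Transplanted HSC were sorted from recipients of young or aged bone marrow (2 arrays each), for which the labels give neither sex nor age. Induced pluripotent stem cells (iPSC) were of young or aged haematopoietic origin (2 arrays each), and embryonic stem cells (ESC) came from the suppliers Open Biosystems and Primogenix (1 array each); the iPSC and ESC were grown on mouse embryonic fibroblast feeders. By the labels, replicate arrays are biological replicates, except in ESC; the labels do not say how many animals were pooled or how HSC were gated. All p-values rest on array-to-array spread within groups, and the small number of arrays limits their precision.

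Levels are log2 of the deposited intensity. They were compared between arrays for 1 probe set at a time, and not between probe sets. How the arrays were normalised is not given, so how far levels can be compared between settings is uncertain. Replicate arrays correlated across probe sets at 0.973 or above in steady-state HSC, at 0.923 and 0.953 in young and aged transplanted HSC, and at 0.991 or above in iPSC and ESC. The 10 measured HSC markers, Kit, Procr and Slamf1 among them, had a summed intensity of 23383 to 28355 on steady-state, 7998 to 9114 on transplanted and 685 to 822 on iPSC and ESC arrays. The 10 pluripotency markers summed to 23645 to 26688 on iPSC and ESC arrays. They summed to 413 to 3080 on steady-state and to 202 to 268 on transplanted arrays. The highest steady-state sums were those of young array 1 (2665) and aged array 1 (3080). Nanog, Sox2 and Zfp42 had HSC group means of 2.85 to 3.33 log2. Other members were brighter in young and aged steady-state HSC: Klf4 (8.91 and 8.33), Utf1 (6.99 and 6.93) and Esrrb (6.77 and 6.70). Fibroblast markers, which the feeders would carry, summed to 2028 to 2892 in iPSC and ESC against 400 to 600 in HSC, mostly through Fn1. The other 9 summed to 459 to 799 in iPSC and 718 to 748 in ESC, against 361 to 456 in HSC. Mature blood markers summed to 2032 to 3642 in HSC against 410 to 476 in iPSC and ESC, mostly through Lyz2 and Pf4. The list did not move together: the group means of Cd3e and Cd79a were higher in iPSC and ESC than in every HSC group.

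The transplanted arrays stood apart from all others in control probe sets that read different ends of the same transcript. For Actb, the 3' minus 5' difference was -0.26 to -0.05 log2 on the 4 transplanted arrays, against 1.98 to 2.25 on steady-state arrays. For Gapdh it was 1.79 to 2.37 log2 on transplanted and 2.88 to 3.32 on steady-state arrays. In the transplanted minus steady-state comparison, 4489 genes had 2 or more probe sets that passed the test, and in 59.7% of these genes (2681) at least 1 probe set was higher and another lower. In iPSC minus steady-state HSC that share was 27.5% (1265 of 4606 genes). Apart from Sirt5, each sirtuin was read by 1 probe set, so this check could not be made for them.

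**Figure D1:**
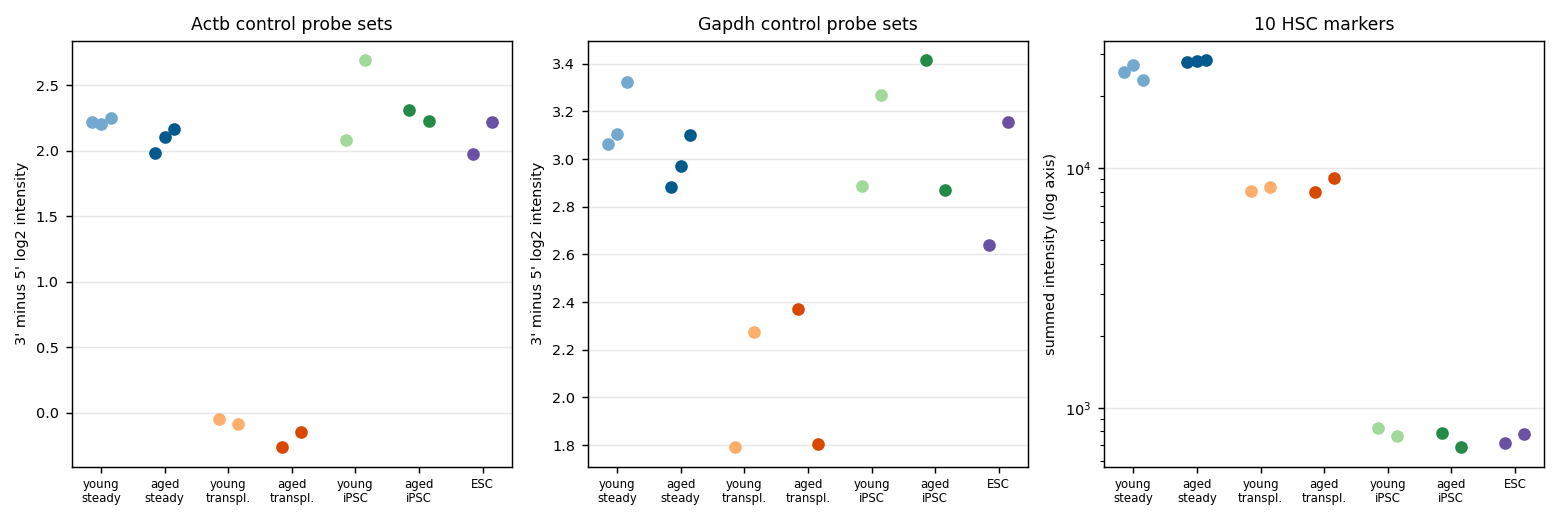
Control measurements on each of the 16 arrays, by group: the 3' minus 5' difference in log2 intensity of the Actb and Gapdh control probe sets, and the summed intensity of 10 HSC markers on a log axis. Each point is an array; the 4 transplanted arrays lie at -0.26 to -0.05 for Actb, below all other arrays, and between steady-state HSC and iPSC in the HSC markers.

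The sirtuins whose levels were lower after transplantation are shown first by their promoters, since they are the members that passed in that comparison. The windows are the 100 bases before the annotated start, 5' to 3' along the gene, from RefSeq on GRCm38.p6; all 7 genes had an entry. Capitals mark matches, on either strand, to any of 5 motifs: the E-box CACGTG, the GC box GGGCGG, the ETS core CCGGAAGT, the CCAAT box CCAAT and an NRF1 half-site GCATGCGC. The Sirt1 window lies at chr10:63339036-63339135 on the minus strand, those of Sirt3 at chr7:140881870-140881969 and chr7:140882310-140882409 on the minus strand, that of Sirt5 at chr13:43365435-43365534 on the plus strand, and that of Sirt7 at chr11:120625015-120625114 on the minus strand.
Sirt1: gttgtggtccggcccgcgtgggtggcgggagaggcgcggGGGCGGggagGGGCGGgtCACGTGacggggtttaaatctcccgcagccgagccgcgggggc
Sirt3, start at the lower coordinate: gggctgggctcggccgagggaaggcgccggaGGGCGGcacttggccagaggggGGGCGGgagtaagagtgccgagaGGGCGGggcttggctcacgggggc
Sirt3, start at the higher coordinate: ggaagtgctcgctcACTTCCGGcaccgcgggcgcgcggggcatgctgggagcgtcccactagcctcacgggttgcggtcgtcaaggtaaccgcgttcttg
Sirt5: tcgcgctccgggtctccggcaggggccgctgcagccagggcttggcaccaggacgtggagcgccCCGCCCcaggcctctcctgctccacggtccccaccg
Sirt7: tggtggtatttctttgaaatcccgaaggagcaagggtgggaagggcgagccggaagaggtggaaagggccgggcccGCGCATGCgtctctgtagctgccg

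The Sirt1 window held an E-box beside GC boxes, the windows of Sirt5 and of 1 Sirt3 start held GC boxes, the other Sirt3 start held an ETS core, and Sirt7 held the NRF1 half-site. No motif of the 5 was in all of these genes' windows. Over 32851 RefSeq windows of the same length, 3.17% held the E-box, 24.7% the GC box, 2.05% the ETS core, 18.9% CCAAT and 1.49% the NRF1 half-site. The Sirt1 window and those of Sirt5 and the lower Sirt3 start were 77% G and C, and that of Sirt7 was 62%. Of the sirtuins that did not pass there, Sirt6 had 2 windows with the same motifs as those of Sirt3, 1 with a GC box and 1 with an ETS core, whereas the Sirt2 and Sirt4 windows held none of the 5 motifs. These matches describe letters and not factor binding.

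The question whether transplanted HSC differ from steady-state HSC was asked with 4 against 6 arrays, each side weighting young and aged equally. The levels of Sirt1, Sirt3, Sirt5 and Sirt7 were lower in transplanted HSC, and those of Sirt2, Sirt4 and Sirt6 did not pass the test. In all, 5 of 9 sirtuin probe sets passed, all lower (limma, Benjamini-Hochberg adjusted p under 0.05), and for these 5 the arrays of the sides did not overlap. This is to be read against a comparison in which 66.6% of all 33778 probe sets tested passed, 36% lower and 30.6% higher, and 52.4% did not overlap. The median change of the 9 was -1.52 log2, against -0.09 for all probe sets tested. Fewer cells of a type and less RNA per cell cannot be told apart in these bulk samples.

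Sirt1, a nuclear deacetylase of histones and of transcription factors such as p53 and FoxO proteins, stood at 9.58, 9.50 and 9.40 log2 on the young and at 10.07, 9.70 and 9.78 on the aged steady-state arrays. It stood at 6.05 and 6.20 on the young and at 6.47 and 6.86 on the aged transplanted arrays. All 4 transplanted arrays lay far below all 6 steady-state arrays. Sirt1 was 9.69-fold lower (log2 -3.28, SE 0.14, limma adjusted p = 6.62e-08), and its rank among all probe sets of an array was at percentile 89.6 to 93.5 at steady state and 56.0 to 66.7 after transplantation.

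Sirt7, a nucleolar sirtuin known for its part in ribosomal RNA transcription and, in HSC, in the mitochondrial protein folding response, stood at 9.51, 9.56 and 9.49 log2 on young and 9.46, 9.28 and 9.41 on aged steady-state arrays. On transplanted arrays it stood at 7.44 and 8.32 (young) and at 8.12 and 7.84 (aged). The groups did not overlap, and the young transplanted pair was the widest (SD 0.62, n = 2). Sirt7 was lower by -1.52 log2 (SE 0.18, limma adjusted p = 3.77e-05).

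Sirt6, a chromatin-bound sirtuin with roles in DNA repair and glycolytic gene repression, had the widest replicate spread of the family after transplantation. It stood at 5.75 and 7.83 log2 on the young and at 7.27 and 6.01 on the aged transplanted arrays, against 6.25, 5.90 and 5.89 (young) and 5.29, 5.67 and 5.65 (aged) at steady state. In each transplanted pair 1 array lay within the steady-state range and the other above all 6 steady-state arrays. The difference of 0.94 log2 (SE 0.38, 95% interval from 0.08 to 1.80) had a limma adjusted p of 0.0528. Without young transplanted array 1 the difference was 1.46 log2, and without young transplanted array 2 it was 0.42 log2.

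Sirt2, the mainly cytosolic member known as a tubulin deacetylase, stood at 7.29 and 8.32 log2 on the young and 7.93 and 8.04 on the aged transplanted arrays. Its 6 steady-state arrays lay between 7.84 and 8.12, inside the range of the transplanted arrays. The difference was -0.10 log2 (95% interval from -0.54 to 0.33, limma adjusted p = 0.651). Without young transplanted array 2 it was -0.36, and without young transplanted array 1 it was 0.15.

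Sirt3, the main deacetylase of mitochondrial enzymes, stood at 10.73, 10.86 and 10.98 log2 on young and 11.06, 10.93 and 10.87 on aged steady-state arrays. It stood at 8.33 and 9.20 on the young and at 9.52 and 9.38 on the aged transplanted arrays. Transplanted and steady-state arrays did not overlap. Sirt3 was 3.48-fold lower in transplanted HSC (log2 -1.80, SE 0.18, limma adjusted p = 1.13e-05).

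Sirt5, which removes succinyl, malonyl and glutaryl groups in mitochondria, was read by 3 probe sets that differed. The probe set 1428916_s_at, with the highest mean over the 16 arrays, stood at 6.97, 6.70 and 6.63 log2 on young and 6.92, 6.97 and 7.01 on aged steady-state arrays, and at 5.76 and 5.10 (young) and 5.15 and 5.39 (aged) after transplantation. It was lower by -1.52 log2 (SE 0.16, limma adjusted p = 1.98e-05), and the groups did not overlap. The probe set 1428915_at moved the same way and further, from a steady-state mean of 7.17 to a transplanted mean of 4.69 (log2 -2.48, SE 0.17, adjusted p = 8.86e-07). Its aged transplanted arrays, at 4.45 and 4.07, lay at percentiles 28.8 and 21.8 of those arrays, so the size of that fall is uncertain. The third, 1432105_at, was dim on all 16 arrays, from 3.81 to 4.58 log2, and its difference was 0.03 (95% interval from -0.24 to 0.31, adjusted p = 0.816).

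Sirt4, a mitochondrial sirtuin with weak deacetylase activity that restrains glutamate dehydrogenase, stood at 6.69 and 6.08 log2 on the young and 5.90 and 6.94 on the aged transplanted arrays. The steady-state arrays lay between 6.42 and 6.77, within that range. The difference was -0.16 log2 (95% interval from -0.64 to 0.32, limma adjusted p = 0.526).

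**Figure D2:**
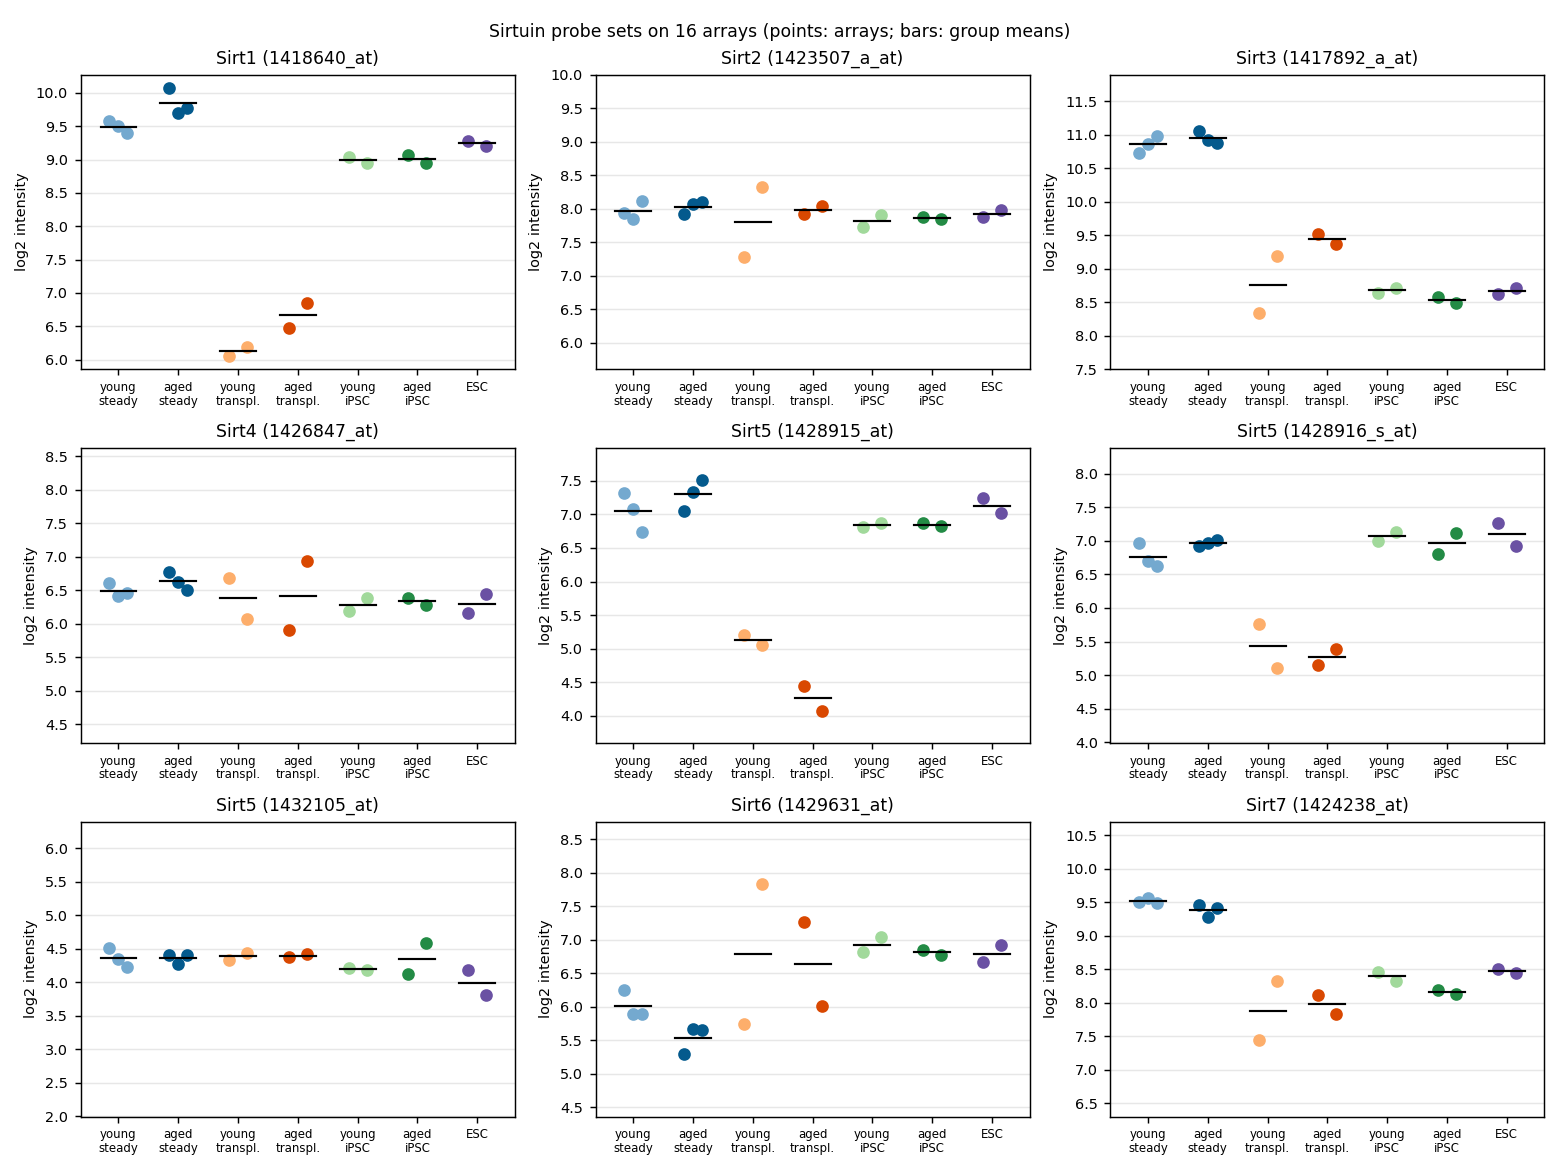
Log2 intensity of the 9 sirtuin probe sets (1 panel each) on the 16 arrays by group; points are arrays, bars are group means, and each panel has its own axis. Sirt1, Sirt3, Sirt7 and 2 of the 3 Sirt5 probe sets stand lower on all transplanted than on all steady-state arrays, whereas Sirt2 and Sirt4 stay within 0.23 and 0.35 log2 over the 7 group means.

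The scale between arrays was checked for these falls. The median of all probe sets tested was -0.09 log2 as deposited, -0.14 after quantile normalisation and -0.29 with each array centred on its median. Of all calls, 46% were higher as deposited and 36.9% with that centring. The 5 lower probe sets stayed lower and passed under both scalings, with Sirt1 at -3.29 and -3.48 log2 and Sirt7 at -1.38 and -1.73. Sirt2, which did not pass, turned to 0.05 after quantile normalisation. The low HSC markers (10 of 10 lower, median -1.82 log2) and the changed Actb and Gapdh control differences moved with the falls on the same 4 arrays. These shifts cannot be told apart from transplantation in this design, and their part in the falls was not tested.

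To see whether ageing moved the sirtuins at steady state, the 3 aged arrays were set against the 3 young ones. None of the 9 probe sets passed (limma, 0 of 9, and 0 at an unadjusted p under 0.05), in a comparison that called 0.601% of all probe sets (203 of 33778) and in which 4.96% had an unadjusted p under 0.05. The changes lay between -0.47 and 0.36 log2 and all 9 had an adjusted p of 1. For 3 of the 9 the aged and young arrays did not overlap, which was so for 15.2% of all probe sets tested. These were Sirt1, Sirt6 and Sirt7.

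Sirt1 was higher on each aged than on each young array, with means of 9.85 ± 0.20 and 9.49 ± 0.09 log2 (SD, n = 3 each), a difference of 0.36 (SE 0.18, 95% interval from -0.04 to 0.76, limma). Sirt6 was lower on each aged array, with means of 5.54 ± 0.21 and 6.01 ± 0.21 (SD, n = 3 each). Its difference of -0.47 had a wide interval, from -1.56 to 0.61, in a fit that takes 1 spread per probe set from steady-state and transplanted arrays together. Sirt7 differed by -0.13 (95% interval from -0.64 to 0.37).

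The remaining differences were 0.10 for Sirt3 (95% interval from -0.40 to 0.59), 0.07 for Sirt2 (-0.49 to 0.62) and 0.14 for Sirt4 (-0.47 to 0.74). Sirt5 differed by 0.25, 0.20 and 0.00 on its 3 probe sets, with no interval reaching beyond 0.72. The aged and young arrays of Sirt2, Sirt3, Sirt4 and Sirt5 overlapped.

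After transplantation, 2 aged arrays were set against 2 young ones. Again none of the 9 probe sets passed (limma, 0 of 9, and 3 at an unadjusted p under 0.05), where 0.779% of all probe sets were called (263 of 33778) and 13.9% had an unadjusted p under 0.05. Aged and young arrays did not overlap for 3 of 9, against 31.9% of all probe sets tested. Sirt1 was higher on both aged arrays (6.66 ± 0.27 against 6.12 ± 0.10, SD, n = 2 each), a difference of 0.54 log2 (SE 0.22, 95% interval from 0.05 to 1.03, limma adjusted p = 0.306).

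Sirt3 was also higher on both aged arrays, by 0.68 log2 (SE 0.27, limma adjusted p = 0.3) and its young pair was wide (SD 0.61, n = 2). Without young transplanted array 2, which had the higher young level, the Sirt3 difference was 1.11 log2. Without young transplanted array 1 it was 0.25 log2, so its size rested on which of the 2 young arrays was kept. Sirt5 was lower on both aged arrays at 1428915_at, by -0.87 log2 (SE 0.26, adjusted p = 0.163), which passed with all 16 arrays in 1 fit (adjusted p = 0.0424). The Sirt5 probe set 1428916_s_at differed by only -0.16 (95% interval from -0.72 to 0.40), and its arrays overlapped.

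The other differences with age after transplantation were 0.18 for Sirt2, 0.10 for Sirt7, 0.04 for Sirt4, -0.15 for Sirt6 and 0.01 for Sirt5 at 1432105_at, each with a limma adjusted p of 0.855 or above. The age effects of the transplanted and the steady-state arrays were then compared directly. None of the 9 probe sets passed for a difference between the settings (limma, 0 of 9, and 1 at an unadjusted p under 0.05). Of all probe sets, 0.0533% passed and 9.05% had such a p. Intervals were wide, for Sirt6 from -1.40 to 2.04 log2, so a difference could be missed. The difference with the smallest adjusted p was that of Sirt5 at 1428915_at, -1.12 log2 (adjusted p = 0.332).

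The summed intensity of the 10 measured mature blood markers was 3444 to 3460 on the young and 2119 to 2149 on the aged transplanted arrays. For the 7 tested, the median difference with age was -0.20 log2, and 2 were above 0. Of the 7, 1 passed, the macrophage receptor gene Csf1r, which was lower on aged arrays (3.24 against 6.85 log2, a difference of -3.61, limma adjusted p = 0.0323). Its aged mean lay below the 25th percentile of those arrays, so the size of that fall is uncertain. The lysozyme gene Lyz2 differed by -0.78 (adjusted p = 0.256), whereas Elane differed by 0.55 (0.477) and Cd79a by 0.18 (0.805). The part of these markers in the sirtuin differences with age was not tested.

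**Figure D3:**
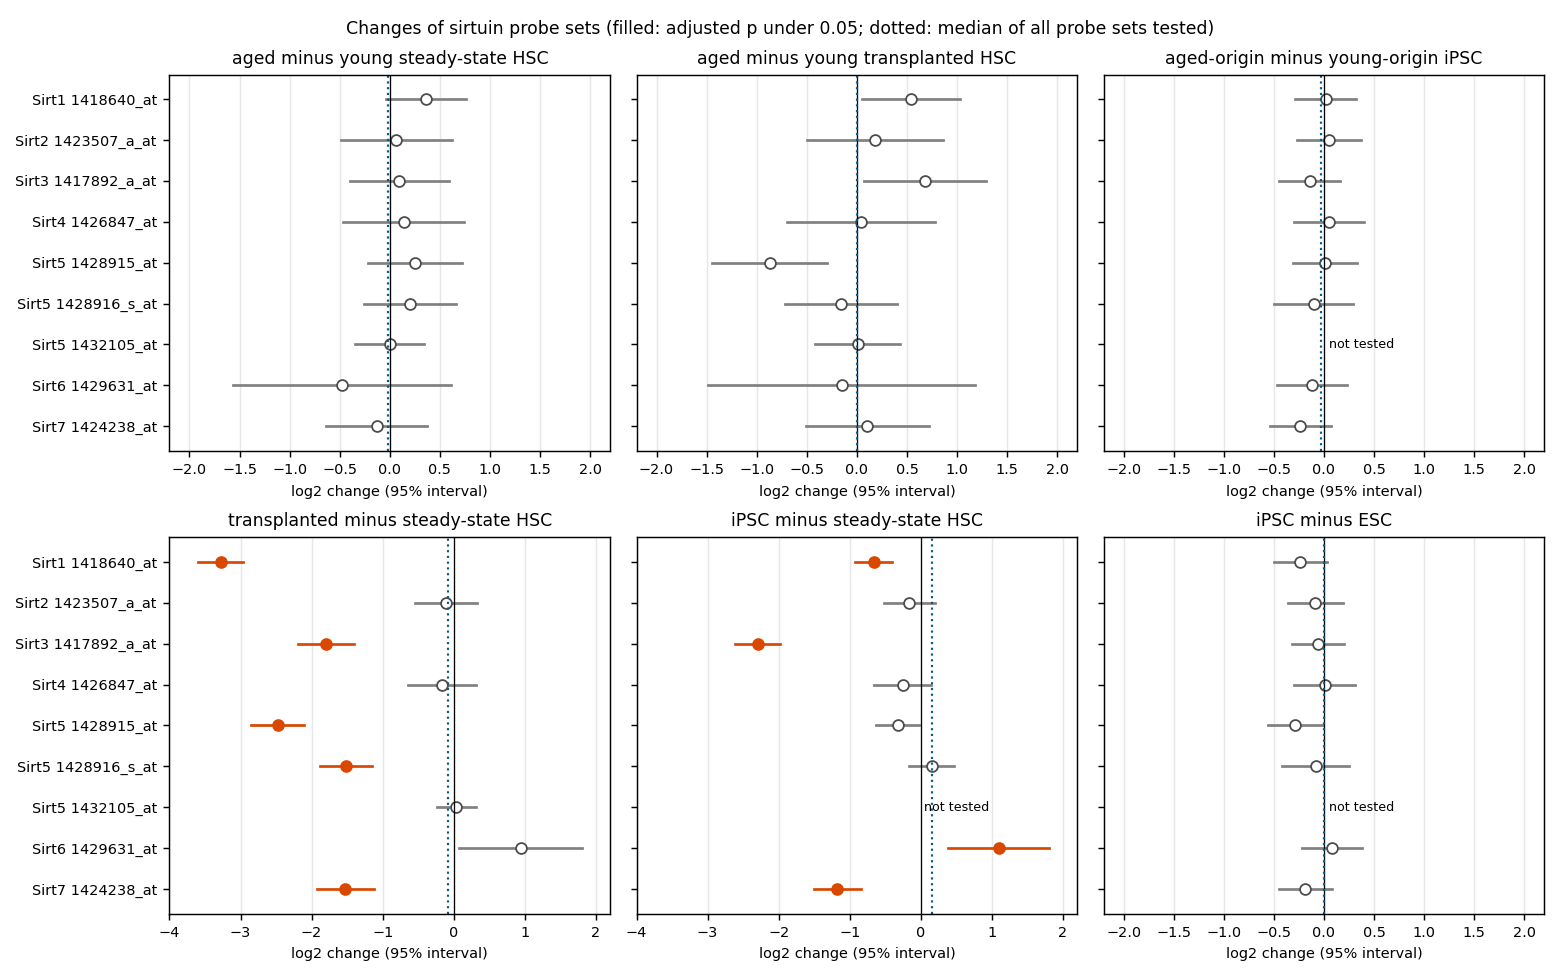
Log2 change of each sirtuin probe set, with its 95% interval, in 6 comparisons; filled orange points passed at an adjusted p under 0.05, open points did not, and the dotted line is the median of all probe sets tested. No point is filled in the 3 age comparisons or in iPSC minus ESC, 5 are filled in transplanted minus steady-state HSC and 4 in iPSC minus steady-state HSC.

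The iPSC addressed whether sirtuin levels carried a trace of the donor's age through reprogramming. None of 8 tested probe sets passed (limma, 0 of 8, and 0 at an unadjusted p under 0.05), where 0.0118% of all probe sets did (4 of 33778) and 4.49% had an unadjusted p under 0.05; 1432105_at of Sirt5 was below the filter on dim probe sets here. The changes ran from -0.24 log2 for Sirt7 (95% interval from -0.54 to 0.07) to 0.05 for Sirt4 (-0.30 to 0.40). Sirt7 stood at 8.46 and 8.33 in young-origin and at 8.19 and 8.13 in aged-origin iPSC. It and Sirt3 (8.65 and 8.71 against 8.58 and 8.50) were the 2 of 9 probe sets whose arrays did not overlap, against 32.2% of all tested.

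For Sirt1 the iPSC arrays were close: 9.04 and 8.96 of young origin and 9.07 and 8.95 of aged origin, a difference of 0.02 log2 (95% interval from -0.29 to 0.32). When the age effects in iPSC and in steady-state HSC were compared, none of 8 probe sets passed (limma, 0 of 8, and 0 at an unadjusted p under 0.05). Of all probe sets, 0.243% passed and 3.44% had such a p. Against ESC, 0 of 8 passed (limma, 1 at an unadjusted p under 0.05), where 0.0947% of all probe sets did and 12.5% had such a p. The largest of these differences were -0.29 log2 for Sirt5 at 1428915_at (95% interval from -0.56 to -0.01, adjusted p = 0.38) and -0.24 for Sirt1 (-0.50 to 0.03, adjusted p = 0.45). Sirt1 stood at 9.28 and 9.20 in ESC, above all 4 iPSC arrays. It and Sirt5 at 1428915_at were the 2 of 9 probe sets whose iPSC and ESC arrays did not overlap, against 23.7% of all tested.

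Between the pluripotent and the haematopoietic state, 4 iPSC arrays were compared with the 6 steady-state HSC arrays. Sirt3, Sirt7 and Sirt1 were lower in iPSC, and Sirt6 was higher. In all, 4 of 8 tested probe sets passed, 3 lower and 1 higher, where 67.4% of all probe sets tested did, 30.2% lower and 37.2% higher. The median of all probe sets was 0.16 log2 in this comparison. The HSC arrays here are the same ones that served as the reference for transplanted HSC.

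Sirt3 had the largest difference: 8.50 to 8.71 log2 over the 4 iPSC arrays against 10.73 to 11.06 at steady state, 4.92-fold lower (log2 -2.30, SE 0.15, limma adjusted p = 1.01e-08). Sirt7 lay at 8.13 to 8.46 in iPSC and at 9.28 to 9.56 at steady state, a difference of -1.17 (SE 0.15, adjusted p = 1.07e-05). Sirt1 lay at 8.95 to 9.07 in iPSC, below the steady-state range of 9.40 to 10.07, with a difference of -0.67 (SE 0.12, adjusted p = 0.000234). None of these 3 ranges overlapped between the cell types. With Sirt4 and Sirt6, the arrays of 5 of 9 probe sets did not overlap, against 63.5% of all probe sets tested.

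Sirt6 was the only sirtuin that passed in the other direction. It stood at 6.82, 7.04, 6.85 and 6.78 log2 in iPSC and at 6.66 and 6.92 in ESC, above the steady-state range of 5.29 to 6.25. The iPSC were higher by 1.10 log2 or 2.14-fold (SE 0.33, limma adjusted p = 0.00967). Sirt5 did not pass at either tested probe set, with -0.33 at 1428915_at (95% interval from -0.63 to -0.02, adjusted p = 0.055) and 0.15 at 1428916_s_at (-0.17 to 0.47, adjusted p = 0.382). The first of these passed in 10 of 26 alternatives: with median centring, a pseudocount of 32, the compared arrays alone, array weights, and without any 1 of the 4 transplanted arrays, aged steady-state array 1 or young steady-state array 3 (limma adjusted p from 0.0215 to 0.0475). After quantile normalisation it was -0.07 and did not pass, and the other passed at 0.39 log2 (adjusted p = 0.0315). Sirt4 differed by -0.25 (-0.66 to 0.15) and Sirt2 by -0.16 (-0.52 to 0.20), and neither passed, although Sirt4 did on the compared arrays alone (adjusted p = 0.0333).

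Over the 7 group means, each sirtuin had its own order. Sirt1 ran from 9.85 log2 in aged steady-state HSC through 9.49 in young steady-state HSC, 9.24 in ESC and 9.01 in aged-origin iPSC, closely followed by young-origin iPSC, down to 6.66 and 6.12 in aged and young transplanted HSC. Only the iPSC groups overlapped as neighbours in that order. Sirt3 was highest in steady-state HSC (10.95 aged, 10.86 young, overlapping), then 9.45 and 8.77 in aged and young transplanted HSC, with 8.68 in young-origin iPSC, 8.67 in ESC and 8.54 in aged-origin iPSC at the bottom. Young transplanted HSC overlapped with young-origin iPSC, and these with ESC.

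Sirt7 was highest in young (9.52) and aged (9.39) steady-state HSC and lowest in aged (7.98) and young (7.88) transplanted HSC, with ESC and iPSC between 8.16 and 8.47. Sirt5 at 1428916_s_at had 5 groups between 6.76 and 7.10, each overlapping its neighbour, and both transplanted groups at 5.43 and 5.27. Sirt6 had 5 overlapping groups between 6.64 and 6.93, with young steady-state HSC next at 6.01, still overlapping aged transplanted HSC, and aged steady-state HSC lowest at 5.54. Sirt2, whose 7 means lay within 0.23 log2, and Sirt4, within 0.35, overlapped between all neighbours. By this measure Sirt1 varied most of the 7 genes between groups (3.73 log2), followed by Sirt3 (2.42), Sirt7 (1.64) and Sirt6 (1.39), while the place of Sirt5 depended on the probe set (3.04 at 1428915_at and 1.83 at 1428916_s_at).

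For the 5 sirtuins that spanned at least 1 log2, the genes with the closest pattern over the 7 group means were found by the root mean square difference after centring, among 14905 genes. Sirt1 was closest to Trappc2 (0.154 log2), Dph2 (0.173) and Cmtm6 (0.186), where the median gene lay at 1.31. Sirt3 was closest to Lrrc49 (0.116), Cfap97 (0.121) and Tnfrsf1a (0.128), and Sirt5 to Celf1 (0.037), Otud6b (0.0518) and Gstm7 (0.0709). Sirt6 was closest to Pidd1 (0.0946), Map3k6 (0.0969) and Gm19345 (0.098), and Sirt7 to Cspp1 (0.0573), Dgcr2 (0.0988) and Ankhd1 (0.0997). No other sirtuin was among these neighbours.

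The genes around the sirtuins were described through 7 lists of 102 genes, with 1 probe set per gene, that with the highest mean over the 16 arrays: NAD+ synthesis, NAD+ consumption by other enzymes, sirtuin regulators, nuclear and cytosolic targets, mitochondrial targets, the mitochondrial unfolded protein response and the classical histone deacetylases. The NAD+ synthesis list also held the NAD+ kinase genes Nadk and Nadk2 and the mitochondrial NAD+ carrier gene Slc25a51, which do not make NAD+. With age, no member of any list passed in steady-state HSC (limma, 0 of 90 tested, 1 at an unadjusted p under 0.05), in transplanted HSC (0 of 90, 15 unadjusted) or in iPSC (0 of 90, 3 unadjusted), and none passed in iPSC minus ESC (0 of 90, 7 unadjusted). Over all probe sets, the share at an unadjusted p under 0.05 was 4.96%, 13.9%, 4.49% and 12.5% in these comparisons. The list medians with age in steady-state HSC lay between -0.08 and 0.08 log2, against -0.02 for all probe sets tested. The member with the smallest p there was the class IIa deacetylase gene Hdac9 (0.66 log2, limma adjusted p = 0.576). In the other lists it was Nadk2 (0.34), Parp1 (-0.32), Prkaa2 (0.74), the Sirt1 target Foxo1 (0.41), Acadl (0.34) and Hspe1 (-0.21), each with an adjusted p of 1.

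With age in transplanted HSC, the list medians lay between -0.22 and 0.05 log2. The smallest p was that of Parp4, a member of the poly(ADP-ribose) polymerase family (-1.04 log2, limma adjusted p = 0.104), followed in other lists by the stress factor gene Ddit3 (-0.94, 0.159), Prkaa2, a catalytic subunit of AMP-activated kinase (-1.42, 0.175), and the NAD+ salvage gene Naprt (1.02, 0.214). The aged mean of Prkaa2, 3.90 log2, lay below the 25th percentile of the aged transplanted arrays, so the size of its difference is uncertain. Hdac3 (-0.69), Xrcc6 (-0.91) and Mlycd (-0.58) had adjusted p of 0.229 to 0.285. In iPSC the smallest p by list belonged to Nmnat2 (0.40), Parp4 (0.30), Rps19bp1 (-0.16), Wrn (0.44), Opa1 (-0.24), Ddit3 (-0.29) and Hdac10 (0.29), each with an adjusted p of 0.994. Against ESC they were Nadk2 (-0.24), Tnks (-0.31), Elavl1 (-0.60), Acss2 (0.59), Hadha (0.62), Clpx (-0.29) and Hdac10 (-0.18), with adjusted p of 0.204 or above.

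In transplanted minus steady-state HSC, 20 of the 90 tested list genes were higher and 49 lower, where 30.6% and 36% of all probe sets were. Of the 14 tested mitochondrial targets, 11 were lower and 2 higher (median -1.10 log2). Glud1, the glutamate dehydrogenase that Sirt4 restrains, fell by 3.13 log2, and the fatty acid oxidation gene Acadl, a Sirt3 target, fell by 2.89, whereas Hadha, of the same pathway, rose by 3.26. Of 18 nuclear and cytosolic targets, 9 were lower and 2 higher (median -0.81), with the NF-kappaB subunit gene Rela at -3.22, the acetyltransferase gene Kat2b at -1.65 and Hif1a at -1.67. Of the NAD+ consuming enzymes 5 of 9 were lower and 1 higher (median -0.65), with Parp4 (-1.75), Parp14 (-2.06) and Parp9 (-1.40).

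Of 16 tested genes of the NAD+ synthesis list in the same comparison, 8 were lower and 5 higher (median -0.47 log2). With each array centred on its median 9 were lower and 2 higher, and after quantile normalisation 9 and 3. Nampt, the rate-limiting enzyme of NAD+ salvage, was at -1.44, the mitochondrial NAD+ carrier gene Slc25a51 at -1.10 and Tdo2 at 1.64, from a steady-state mean of 3.99 log2 that lay below the 25th percentile of those arrays, so the size of its change is uncertain. Of 11 sirtuin regulators 4 were higher and 4 lower (median -0.14; 1 higher and 4 lower with each array centred on its median), with Senp1 at 2.94, Ctbp1 at -1.73 and Hic1, a repressor of Sirt1, at -0.89. The mitochondrial unfolded protein response had 4 of 11 higher and 5 lower (median 0.39), with Ubl5 at 3.38, Hspa9 at -1.62 and Yme1l1 at 1.26. Of 11 classical histone deacetylases 7 were lower and 2 higher (median -0.80), with Hdac9 at -2.32, Hdac11 at -3.02 and Hdac1 at -1.43.

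These counts rest on 1 probe set per gene, the brightest, whereas the shares beside them, here and for iPSC below, are over all probe sets tested. Of the 69 list genes that passed in transplanted minus steady-state HSC, 39 had another tested probe set, and in 24 of these 39 at least 1 other probe set passed in the opposite direction. Nampt, Parp4, Parp14, Senp1, Kat2b, Hif1a, Hspa9, Yme1l1 and Hdac9 were among those 24. Ubl5 and Hdac11 each had 1 other tested probe set, which passed in the same direction. The other tested probe sets of Glud1 (1) and Slc25a51 (2) did not pass in either direction. Acadl, Hadha, Rela, Parp9, Tdo2, Ctbp1, Hic1 and Hdac1 had no other. The list medians kept their sign with quantile normalisation and with each array centred on its median, although that of the sirtuin regulators was -0.0014 after quantile normalisation. The unfolded protein response then had 5 higher and 4 lower.

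In iPSC minus steady-state HSC, 28 of the 90 tested list genes were higher and 38 lower, where 37.2% and 30.2% of all probe sets were. Nuclear and cytosolic targets were mostly lower (12 of 18 lower, 2 higher, median -0.80 log2), with the stem cell maintenance factor gene Foxo3 at -2.55, Elk4 at -4.19 and the helicase gene Wrn at -2.33. Of 14 mitochondrial targets, 7 were lower and 3 higher (median -0.51); Acadl was at -2.49 and Acss1 at -2.63, whereas Sod2, the mitochondrial superoxide dismutase that Sirt3 activates, was at 1.57. Of 11 histone deacetylases 6 were lower and 3 higher (median -0.83), with Hdac9 at -4.13 (to an iPSC mean of 4.13 log2, below the 25th percentile of those arrays, so its size is uncertain), Hdac11 at -2.01 and the tubulin deacetylase gene Hdac6 at 2.23.

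The unfolded protein response genes had 6 of 11 higher and 2 lower in iPSC (median 0.32 log2), with the chaperonin gene Hspe1 at 1.58, the matrix protease gene Clpp at 2.52 and Ubl5 at 1.501. The NAD+ synthesis list had 6 of 16 higher and 3 lower (median 0.30). Those with the smallest p were the 3 lower ones: the NAD+ kinase gene Nadk2 (-4.11), the carrier gene Slc25a51 (-3.08) and Nmnat3 (-3.83). NAD+ consumption had 4 of 9 lower and 2 higher (median -0.25), with Parp4 (-3.60), Parp14 (-3.89) and Parp9 (-2.25). Sirtuin regulators had 6 of 11 higher and 4 lower (median 0.51), with Ccar2, an inhibitor of Sirt1, at -1.37, Ctbp1 at -1.66 and Rps19bp1, an activator of Sirt1, at 2.23. Of 41 list genes that passed here and had another tested probe set, 13 had one that passed in the opposite direction, Elk4, Sod2 and Ubl5 among them.

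**Figure D4:**
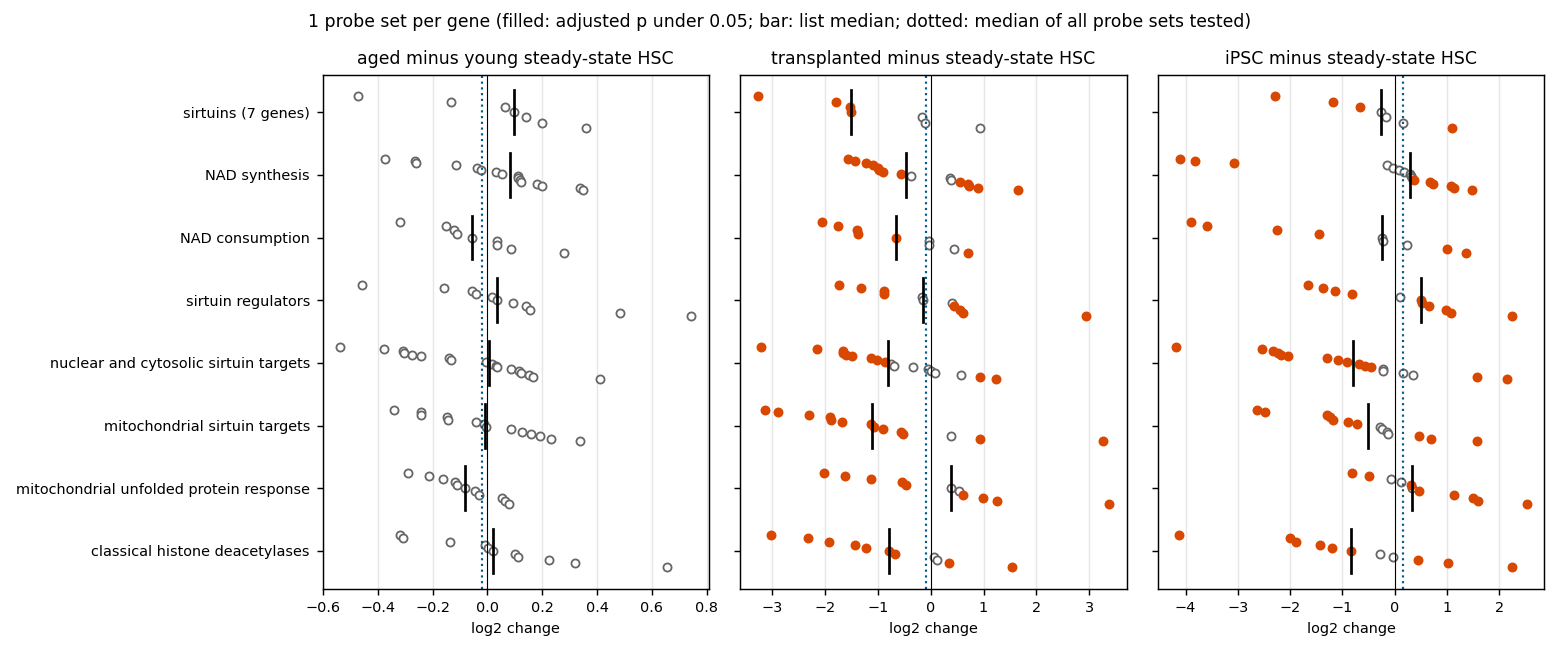
Log2 change of the 7 sirtuin genes and of the tested members of 7 related lists, 1 probe set per gene, in 3 comparisons; filled orange points passed at an adjusted p under 0.05, bars are list medians and the dotted line is the median of all probe sets tested. No gene is filled for age in steady-state HSC, whereas 69 and 66 list genes are filled in transplanted and in iPSC minus steady-state HSC.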

How the data were processed

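Per the labels, the QIAGEN microRNeasy kit yielded total RNA, from which biotinylated cRNA was made for 16 Affymetrix arrays. The authors deposited 1 linear intensity per probe set (4.53 to 31493, 0 values missing); how they were summarised and normalised stands as not given in the sources used here, and log2 of each intensity was taken with no pseudocount. Of 45101 probe sets, 64 controls stayed out of the tests, and 34945 had exactly 1 symbol in the platform annotation; 18032 of 18193 genes were found in RefSeq.

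Probe sets, not genes, were tested with limma 3.58.1 (lmFit and eBayes, R 4.3.3), above the 25th percentile of mean log2, which left 33778 per fit. One fit held the 10 HSC arrays and another the 6 pluripotent arrays; iPSC were compared with HSC in a fit of all 16. Adjusted p-values are Benjamini-Hochberg over all probe sets tested, called under 0.05; intervals are 95% and unadjusted. The fit was tested on simulated data.

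The members, lists and tests were chosen with earlier results of these data known, so no pattern here is independent support. Named were all sirtuin probe sets and, from each list and comparison, up to 3 called members with the smallest p, or the smallest p where none was called. The named marker genes and the counts of opposed probe sets were chosen after values were seen. Deviations of same-numbered replicates of young and aged groups correlated at -0.37 to 0.196, so no block was used. In groups of 2 arrays this says little, since same-numbered and crossed pairs mirror each other (-0.138 and 0.138 after transplantation). The pluripotency marker sum was highest on array 1 of both steady-state groups. Alternatives were quantile normalisation, median centring, other filters, 1 probe set per gene, a pseudocount of 32, a robust intensity trend, all 16 arrays for each contrast, the compared arrays alone, array weights, a replicate block, a required 2-fold change and each array left out.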

Additional observations from a re-analysis of the deposited data

How the results depend on the processing

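The count of sirtuin calls was 0 under all alternatives run in 5 of the 8 comparisons. In transplanted minus steady-state HSC it was 5 or 6, and in iPSC minus steady-state HSC 3 to 6 (3 with a 2-fold change required, 6 on the compared arrays alone). In aged minus young transplanted HSC, 0 calls became 1 with all 16 arrays in 1 fit (Sirt5 at 1428915_at), and leaving out 1 array at a time gave 0 to 1 (Sirt3 without young transplanted array 2); the cause was not tested. Leaving out 1 array gave 5 to 6 calls in transplanted minus steady-state HSC and 4 to 5 in iPSC minus steady-state HSC, and 0 in the other 5 comparisons. Sirt6 in transplanted minus steady-state HSC passed with a filter at the 50th percentile, 1 probe set per gene, all 16 arrays in 1 fit and array weights (limma adjusted p from 0.0208 to 0.0487). Sirt5 at 1428915_at in iPSC minus steady-state HSC passed in 10 of 26 alternatives. Sirt1 in iPSC lost its call only where a 2-fold change was also required.

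The replicate number as a block gave 5, 4 and otherwise 0 sirtuin calls, the same counts as without it. It cut the all-probe-set calls of transplanted ageing from 263 to 19 and of the difference of age effects from 18 to 0; the arrays share only a number. Pairings crossed for the transplanted and the iPSC arrays, added after the data were seen, gave 41 calls over all probe sets for transplanted ageing and 1 for iPSC ageing, with 0 sirtuin calls in each.

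Calls over all probe sets depended on the setting: 106 to 740 for steady-state ageing, 0 to 1436 for transplanted ageing (52 to 2620 without 1 array), 0 to 292 for the difference of these effects (0 to 1038), 9534 to 26795 for transplanted minus steady-state HSC, 1 to 5 for iPSC ageing (0 to 5), 15 to 104 for iPSC minus ESC (13 to 31), 10429 to 26528 for iPSC minus steady-state HSC and 61 to 344 for the difference of age effects in iPSC and steady-state HSC (27 to 143).

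Changes of sign occurred in values that had not passed. With quantile normalisation, Sirt5 at 1432105_at was -0.033 for transplanted ageing, -0.044 for the difference of age effects and -0.077 for transplanted minus steady-state HSC, and Sirt2 was 0.052 for transplanted and 0.12 for iPSC minus steady-state HSC and 0.026 for the iPSC difference of age effects. With median centring, Sirt5 at 1432105_at was -0.0043, -0.030, -0.025 and -0.17 for the 4 HSC comparisons, Sirt5 at 1428915_at was -0.00053 for iPSC ageing, and Sirt4 was -0.0028 for iPSC minus ESC. A pseudocount of 32 gave -0.00080 for Sirt5 at 1432105_at in steady-state ageing, and array weights gave -0.049 for its difference of age effects and 0.023 for Sirt2 in the iPSC difference.

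Leaving out 1 array turned the sign of further values that had not passed. For transplanted ageing the ranges were -0.33 to 0.70 for Sirt2, -0.34 to 0.54 for Sirt7, -0.48 to 0.56 for Sirt4, -1.19 to 0.89 for Sirt6, and -0.49 to 0.17 and -0.046 to 0.060 for Sirt5 at 1428916_s_at and 1432105_at. For the difference of age effects they were -0.40 to 0.63 for Sirt2, -0.20 to 0.67 for Sirt7, -0.62 to 0.42 for Sirt4, -0.72 to 1.36 for Sirt6, -0.011 to 0.37 for Sirt1 and -0.068 to 0.074 for Sirt5 at 1432105_at. For transplanted minus steady-state HSC they were -0.36 to 0.15 for Sirt2 and -0.42 to 0.098 for Sirt4, and for steady-state ageing -0.067 to 0.076 for Sirt5 at 1432105_at.

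For iPSC ageing the ranges without 1 array were -0.046 to 0.076 for Sirt1, -0.040 to 0.14 for Sirt2, -0.045 to 0.15 for Sirt4, and -0.024 to 0.037 and -0.26 to 0.046 for Sirt5 at 1428915_at and 1428916_s_at. For iPSC minus ESC they were -0.14 to 0.15 for Sirt4, -0.26 to 0.090 for Sirt5 at 1428916_s_at and -0.044 to 0.21 for Sirt6. For the iPSC difference of age effects they were -0.11 to 0.073 for Sirt2 and -0.18 to 0.0076 for Sirt4. With 2 or 3 arrays per group, a small difference could not be told from 0 here, and no detection calls were used that would separate a dim probe set from background.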
